A study of Danio rerio with 12 samples.

Results

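The antigen presentation genes of zebrafish are described here, in whole larvae at 3 days post fertilization (dpf). They were chosen by name: genes called mhc1 or mhc2 (the chains of the major histocompatibility complex, MHC), tap1 or tap2 (peptide transporters), tapbp (tapasin), erap (peptide-trimming enzymes), b2m (the class I light chain), cd74 (the invariant chain) or ciita (a regulator of class II). The rule found 28 members among the 32349 genes of the joined tables. Of these, 22 belong to class I presentation and 6 to class II presentation.

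The data are 12 RNA-seq libraries, each from a pool of 25 whole larvae, in 4 groups of 3. The groups were larvae labelled Tg(ifih1_mut), here ifih1mut, stimulated with poly I:C; control larvae stimulated with poly I:C; unstimulated ifih1mut larvae; and unstimulated control larvae. Poly I:C is a synthetic double-stranded RNA, and ifih1 encodes MDA5, a sensor of such RNA in the cytosol. The labels name neither the promoter of the transgene, its mutation or the strain, nor how much poly I:C was given, how and for how long. They do not tie the pools to clutches, so each p-value measures the spread between these pools, which may be technical.

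Class I presentation works as an assembly line. Proteasomes cut cytosolic proteins into peptides, the transporter made of Tap1 and Tap2 carries them into the endoplasmic reticulum, aminopeptidases of the Erap family trim them, and tapasin holds an empty heavy chain with its light chain, beta-2-microglobulin, near the transporter until a peptide binds. The complex then shows the peptide at the cell surface to CD8 T cells, and in mammals most genes of the line are induced by interferons. Class II molecules instead carry peptides from endosomes in professional antigen-presenting cells, with the invariant chain Cd74 guarding their groove and Ciita driving their transcription. Zebrafish class I heavy chains fall into lineages: U holds the classical chains, Z is an old lineage shared with many other fishes, and L is a non-classical fish lineage.

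The 22 class I members were 11 heavy chains (7 of lineage Z, 3 of lineage L and 1 of lineage U), 2 light chains, 3 transporter genes, 3 genes of the tapasin family and 3 trimming enzymes. The 6 class II members were 3 MHC genes (mhc2b, mhc2dab and mhc2dbb), cd74a, cd74b and ciita. Positions below are those of the deposited tables, whose genome build they do not state. Tapasin genes tapbp.1 and tapbp.2 and the transporter gene tap2a lay close together on chromosome 19, between positions 7038694 and 7132315. The Z heavy chains lay in one cluster on chromosome 1 (mhc1zea, mhc1zca and mhc1zba, positions 47116121 to 47161996) and another on chromosome 3 (mhc1zfa, mhc1zaa and mhc1zja, positions 325757 to 402740). Heavy chain genes mhc1lga and mhc1lia were neighbours on chromosome 25, mhc1uma was on chromosome 22, and mhc1zka was on an unplaced scaffold.

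The rule also asked for copies on alternate contigs. Of the 3569 genes on such contigs, 0 were members, and no member's name was listed more than once, so chromosome and alternate-contig copies could not be compared. One unnamed entry on an alternate contig of chromosome 12 (positions 26552995 to 26559705), described in the tables by its likeness to mouse TAP2, has listed coordinates that overlap those of tap2t on the primary chromosome (positions 26546820 to 26559650). Its reads may belong in part to tap2t.

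Library totals ran from 31876869 to 100839015 counts, and all levels are CPM, counts scaled to the library total after TMM adjustment. The transgene was visible in its own gene: ifih1 was at 17.5, 25.3 and 33.3 CPM in the stimulated ifih1mut pools, 2.26, 1.92 and 2.02 CPM in the stimulated control pools, 11.1, 14.0 and 17.1 CPM in the unstimulated ifih1mut pools, and 2.29, 2.73 and 1.98 CPM in the unstimulated control pools. Expression of stat1b, a gene induced by interferon, averaged 217.5 ± 153 CPM in the stimulated ifih1mut pools and 2.44 ± 3.08 CPM in the stimulated control pools (SD, n = 3 each). Libraries also fell into 3 sets of 4, by the place of a library's number within its group. Sets were recognised from these libraries and are not named in the labels. Their effect on the members is given after the comparisons, and within-set values stand beside the main results.

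Members differed widely in level. Per kilobase of gene length, the most abundant were the Z heavy chain mhc1zba, at a mean of 26.2 CPM per kb over the 12 libraries (15.4 to 46.8), and the light chain b2ml, at 24.6 CPM per kb (18.3 to 34.0). The next were the L heavy chain mhc1laa at 4.93 CPM per kb, tapbpl, which encodes a tapasin-related peptide editor, at 4.17 CPM per kb, and erap1a at 3.18 CPM per kb. Among the class II members the highest was cd74b, at 0.463 CPM per kb (0.224 to 1.24). Class I thus held all of the most abundant members, while its rarer heavy chains, such as mhc1zaa at 0.0887 CPM per kb, lay below cd74b.

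A filter on low counts kept 25 members, 21 of class I and 4 of class II, among 26508 genes. It removed mhc1zka (10 counts over all 12 libraries), mhc2b (2 counts) and mhc2dab (73 counts). Of the members kept, tap2a, mhc1zaa and cd74a reached its level in stimulated ifih1mut pools alone. The markers of T and NK cells summed to 7.97 to 9.48 CPM in the stimulated ifih1mut pools, 8.01 to 8.70 CPM in the stimulated control pools, 8.70 to 9.09 CPM in the unstimulated ifih1mut pools and 7.34 to 8.73 CPM in the unstimulated control pools.

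In stimulated ifih1mut larvae, tapasin and a trimming enzyme were higher than in stimulated control larvae, and the light chains and transporters had higher values in every pool. By edgeR's quasi-likelihood test with Benjamini-Hochberg adjustment over all genes, 2 of the 25 members tested were higher, tapbp.1 and erap1a, against 0.589% of all genes, and 0 were lower, against 0.0113% of all genes. With the library set as a block, 4 were higher (0.849% of all genes) and 0 lower (0.034%), with DESeq2 4 (0.965%) and 0 (0.0644%), and with DESeq2 and the block 8 (1.23%) and 0 (0.192%). At an unadjusted p of 0.05 edgeR had 14 higher (2.48%) and 0 lower (1.26%), and 18 log2 fold changes were positive (48.9%). Groups did not overlap, with every stimulated ifih1mut pool above every stimulated control pool, for 14 members, against 4.16% of all genes, and 0 lay below (3.2%). The 14 were both light chains, all 3 transporter genes, all 3 trimming enzymes, tapbp.1 and tapbp.2, the heavy chains mhc1zaa and mhc1zfa, cd74a and cd74b. Of these, tap2a, mhc1zaa and cd74a passed the filter through stimulated ifih1mut pools alone, so their lack of overlap followed from the filter. Their unadjusted p-values, each under 0.05, and their place among the 18 positive log2 fold changes are not independent of it.

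Within ifih1mut larvae, a trimming enzyme and the light chain b2m were higher after poly I:C, as was a transporter gene with few counts. Against unstimulated ifih1mut pools, edgeR called 3 members higher in stimulated pools, tap2a, erap1a and b2m, against 0.683% of all genes, and 0 lower, against 0.00754% of all genes. The filter kept tap2a through the stimulated ifih1mut pools alone, so its call is not independent of the filter. With the library set as a block, 7 were higher (0.977% of all genes) and 0 lower (0.0679%), with DESeq2 8 (1.1%) and 0 (0.0606%), and with DESeq2 and the block 11 (1.37%) and 0 (0.332%). The counts of 7, 8 and 11 also include tap2a, with the same limit. At an unadjusted p of 0.05 edgeR had 15 higher (2.54%) and 0 lower (1.1%), and 20 log2 fold changes were positive (46.5%). Every stimulated pool lay above every unstimulated pool for 14 members, against 3.55% of all genes, and below for 0 (2.75%). The 14 again include tap2a, mhc1zaa and cd74a, whose lack of overlap followed from the filter. Their unadjusted p-values, each under 0.05, and their place among the 20 positive log2 fold changes are not independent of it. These comparisons share the stimulated ifih1mut pools, so each member's values are given side by side and the likeness of the lists is not counted as a result.

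**Figure D1:**
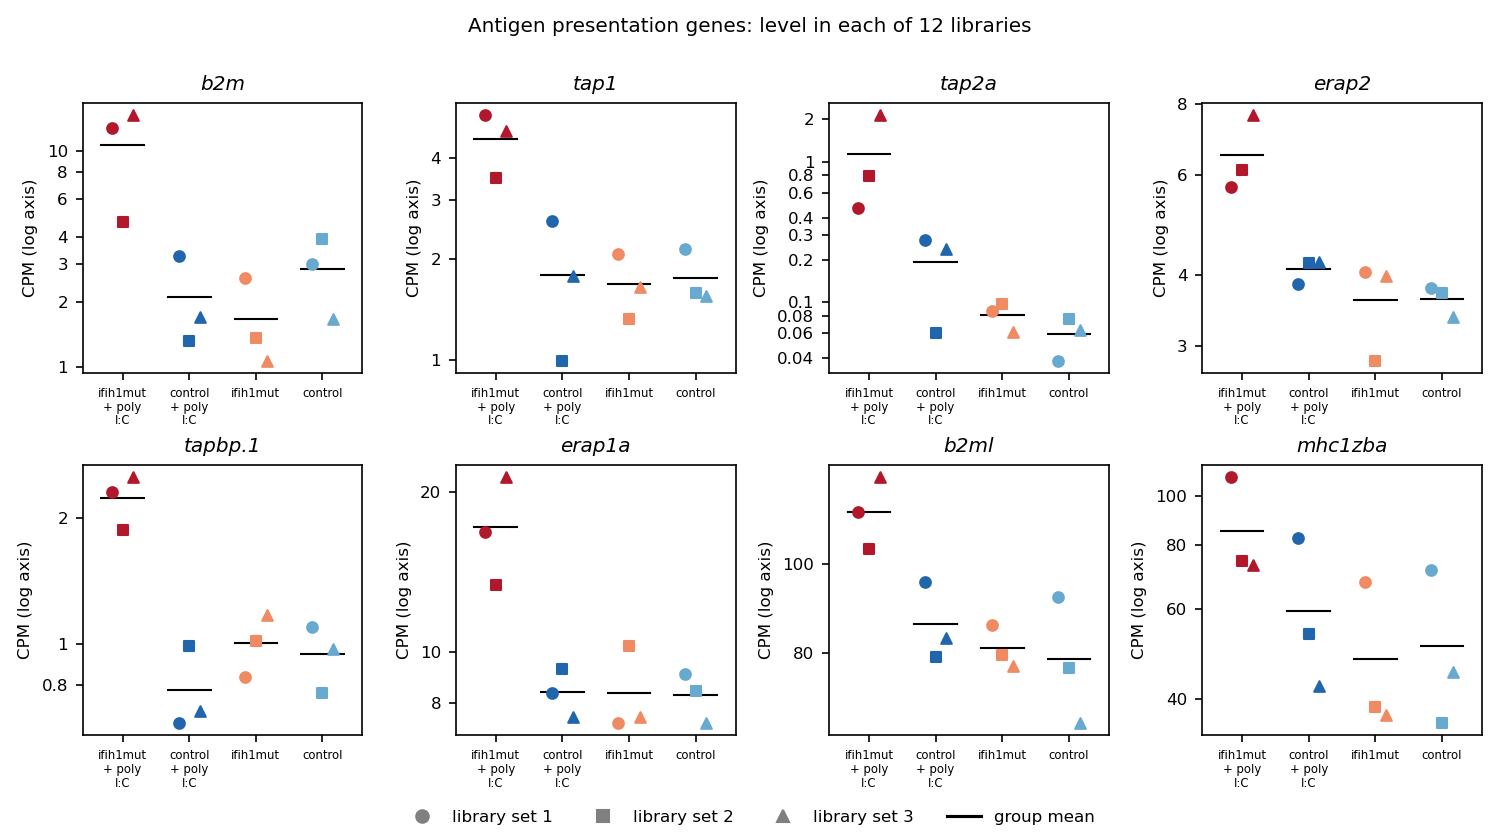
CPM (log axis) of 8 class I genes in each of 12 libraries, 3 per group, with poly I:C-stimulated ifih1mut pools leftmost. Symbols mark the library set and bars the group mean; every stimulated ifih1mut pool of b2m lies above all other pools, between 4.67 and 14.6 CPM.

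The gene b2m encodes the light chain that pairs with class I heavy chains. It was at 12.7, 4.67 and 14.6 CPM in the stimulated ifih1mut pools, 3.28, 1.32 and 1.72 CPM in the stimulated control pools, 2.59, 1.36 and 1.07 CPM in the unstimulated ifih1mut pools, and 3.00, 3.90 and 1.67 CPM in the unstimulated control pools (values of a group are always in order of library set 1, 2 and 3). The middle stimulated ifih1mut pool was the lowest of its group, yet still above each of the other 9 pools. Poly I:C raised b2m in ifih1mut larvae 6.45-fold (log2 fold change 2.69, SE 0.52, edgeR adjusted p = 0.0454). Against stimulated control larvae it was 5.06-fold higher (log2 fold change 2.34, SE 0.52), a difference that missed the threshold (edgeR adjusted p = 0.109); with the library set as a block it passed (adjusted p = 0.0369). Within sets, on the log2(CPM + 0.5) scale, the stimulated ifih1mut pool exceeded the stimulated control pool by 1.80, 1.51 and 2.77. The coordinates of b2m overlap those of irak3 by 5027 bases on the same strand, so their reads may be shared; irak3 averaged 1.46 ± 0.961 CPM in stimulated ifih1mut pools and 1.02 ± 0.567 CPM in stimulated control pools (SD, n = 3 each).

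Its relative b2ml was more abundant per kilobase and had smaller folds. It was at 114, 104 and 124 CPM in the stimulated ifih1mut pools, 95.5, 79.1 and 82.9 CPM in the stimulated control pools, 85.8, 79.5 and 77.3 CPM in the unstimulated ifih1mut pools, and 92.1, 77.1 and 67.04 CPM in the unstimulated control pools. All 3 stimulated ifih1mut pools again stood above the other 9, but only by a fold of 1.33 over stimulated control pools (log2 fold change 0.41, SE 0.12, edgeR adjusted p = 0.526). Over unstimulated ifih1mut pools the fold was 1.41 (log2 fold change 0.49, SE 0.12, edgeR adjusted p = 0.190), and this passed with the library set block (adjusted p = 0.0445). Per kilobase, b2ml stood at 31.1 ± 2.79 and b2m at 4.53 ± 2.24 CPM per kb in stimulated ifih1mut pools, against 21.5 ± 3.44 and 1.22 ± 0.478 CPM per kb in unstimulated control pools (SD, n = 3 each).

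Among the transporter genes, tap2a had the highest folds when all libraries were fitted, and the fewest counts. It was at 0.468, 0.793 and 2.14 CPM in the stimulated ifih1mut pools (18, 27 and 76 counts), 0.278, 0.0600 and 0.241 CPM in the stimulated control pools (9, 2 and 8 counts), 0.0863, 0.0964 and 0.0612 CPM in the unstimulated ifih1mut pools (3, 7 and 4 counts), and 0.0382, 0.0765 and 0.0630 CPM in the unstimulated control pools (4, 4 and 2 counts). No group overlapped the stimulated ifih1mut pools, but this followed from the filter, which tap2a passed through these pools alone. Over unstimulated ifih1mut pools the level was 13.6-fold higher (log2 fold change 3.76, SE 0.67, edgeR adjusted p = 0.0273), and over stimulated control pools 5.81-fold higher without passing (log2 fold change 2.54, SE 0.64, edgeR adjusted p = 0.214). Within sets, the difference from the unstimulated ifih1mut pool was 0.72, 1.12 and 2.23 on the log2(CPM + 0.5) scale, so the third set moved furthest.

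The whole of tap2a, 7979 bases, lies within the coordinates of psmb8a and psmb13a on the opposite strand, both of them proteasome subunit genes. How strand was treated in counting is not stated in the labels or tables, so reads of the 3 genes may not be separable. Counts of psmb8a were high in the same group: it had 18, 9 and 71 counts in the stimulated ifih1mut pools, 0, 1 and 7 in the stimulated control pools, 0, 0 and 4 in the unstimulated ifih1mut pools, and 4, 2 and 1 in the unstimulated control pools. Its counts were too few for the test.

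The gene tap1 encodes the other subunit of the transporter. It was at 5.39, 3.49 and 4.82 CPM in the stimulated ifih1mut pools, 2.60, 0.990 and 1.78 CPM in the stimulated control pools, 2.07, 1.32 and 1.65 CPM in the unstimulated ifih1mut pools, and 2.14, 1.59 and 1.54 CPM in the unstimulated control pools. Each stimulated ifih1mut pool lay above the other 9 pools. The level was 2.55-fold that of stimulated control pools (log2 fold change 1.35, SE 0.33, edgeR adjusted p = 0.192) and 2.73-fold that of unstimulated ifih1mut pools (log2 fold change 1.45, SE 0.33, edgeR adjusted p = 0.117). Both passed with the library set block (edgeR adjusted p = 0.00699 and 0.00409). A further gene of the Tap2 kind, tap2t, averaged 6.52 ± 1.42 CPM in stimulated ifih1mut pools, 4.07 ± 0.749 CPM in stimulated control pools, 3.65 ± 0.450 CPM in unstimulated ifih1mut pools and 3.55 ± 0.536 CPM in unstimulated control pools (SD, n = 3 each).

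Of the tapasin family, tapbp.1 separated the groups best. It was at 2.32, 1.88 and 2.51 CPM in the stimulated ifih1mut pools, 0.649, 0.990 and 0.693 CPM in the stimulated control pools, 0.834, 1.02 and 1.18 CPM in the unstimulated ifih1mut pools, and 1.098, 0.765 and 0.977 CPM in the unstimulated control pools. The lowest stimulated ifih1mut pool stood well clear of the highest of the other 9. Its level was 2.87-fold that of stimulated control pools (log2 fold change 1.52, SE 0.27, edgeR adjusted p = 0.0268) and higher in value than in unstimulated ifih1mut pools, which was not past the threshold (log2 fold change 1.14, SE 0.26, edgeR adjusted p = 0.116). Within sets the stimulated ifih1mut pool exceeded the stimulated control pool by 1.29, 0.68 and 1.33 on the log2(CPM + 0.5) scale.

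The neighbouring tapasin gene tapbp.2 averaged 2.89 ± 0.685 CPM in stimulated ifih1mut pools, 1.38 ± 0.372 CPM in stimulated control pools, 1.49 ± 0.393 CPM in unstimulated ifih1mut pools and 1.37 ± 0.358 CPM in unstimulated control pools (SD, n = 3 each). Its stimulated ifih1mut pools did not overlap the other groups, and its fold of 2.096 over stimulated control pools did not pass (log2 fold change 1.07, SE 0.31, edgeR adjusted p = 0.475). The related gene tapbpl averaged 20.1 ± 4.46 CPM in stimulated ifih1mut pools, 19.3 ± 3.27 CPM in stimulated control pools, 18.05 ± 4.47 CPM in unstimulated ifih1mut pools and 22.7 ± 5.79 CPM in unstimulated control pools (SD, n = 3 each). Its pools overlapped in every comparison, unlike those of tapbp.1 and tapbp.2 in the comparisons with stimulated ifih1mut pools; the difference between the genes was not tested.

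All 3 trimming enzymes were higher in stimulated ifih1mut pools without overlap, and erap1a was called in both comparisons. It was at 16.8, 13.4 and 21.4 CPM in the stimulated ifih1mut pools, 8.38, 9.27 and 7.53 CPM in the stimulated control pools, 7.34, 10.3 and 7.52 CPM in the unstimulated ifih1mut pools, and 9.06, 8.43 and 7.34 CPM in the unstimulated control pools. The 9 pools outside the stimulated ifih1mut group stayed between 7.34 and 10.3 CPM. The level was 2.05-fold that of stimulated control pools (log2 fold change 1.03, SE 0.19, edgeR adjusted p = 0.0381) and 2.05-fold that of unstimulated ifih1mut pools (log2 fold change 1.03, SE 0.19, edgeR adjusted p = 0.0323). Within sets the stimulated ifih1mut pool exceeded the stimulated control pool by 0.97, 0.50 and 1.44 on the log2(CPM + 0.5) scale.

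The enzyme gene erap2 was at 5.72, 6.14 and 7.66 CPM in the stimulated ifih1mut pools, 3.86, 4.20 and 4.22 CPM in the stimulated control pools, 4.06, 2.82 and 3.99 CPM in the unstimulated ifih1mut pools, and 3.79, 3.73 and 3.37 CPM in the unstimulated control pools. It was 1.59-fold higher than in stimulated control pools (edgeR adjusted p = 0.275) and 1.80-fold higher than in unstimulated ifih1mut pools (edgeR adjusted p = 0.0704), the last of which passed with the library set block (adjusted p = 0.0411). The paralog erap1b averaged 7.68 ± 2.76 CPM in stimulated ifih1mut pools, 3.78 ± 0.487 CPM in stimulated control pools, 3.82 ± 1.54 CPM in unstimulated ifih1mut pools and 3.94 ± 0.901 CPM in unstimulated control pools (SD, n = 3 each). All 3 trimming genes thus had their highest group mean in stimulated ifih1mut pools, and the order of the other groups differed between them.

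**Figure D2:**
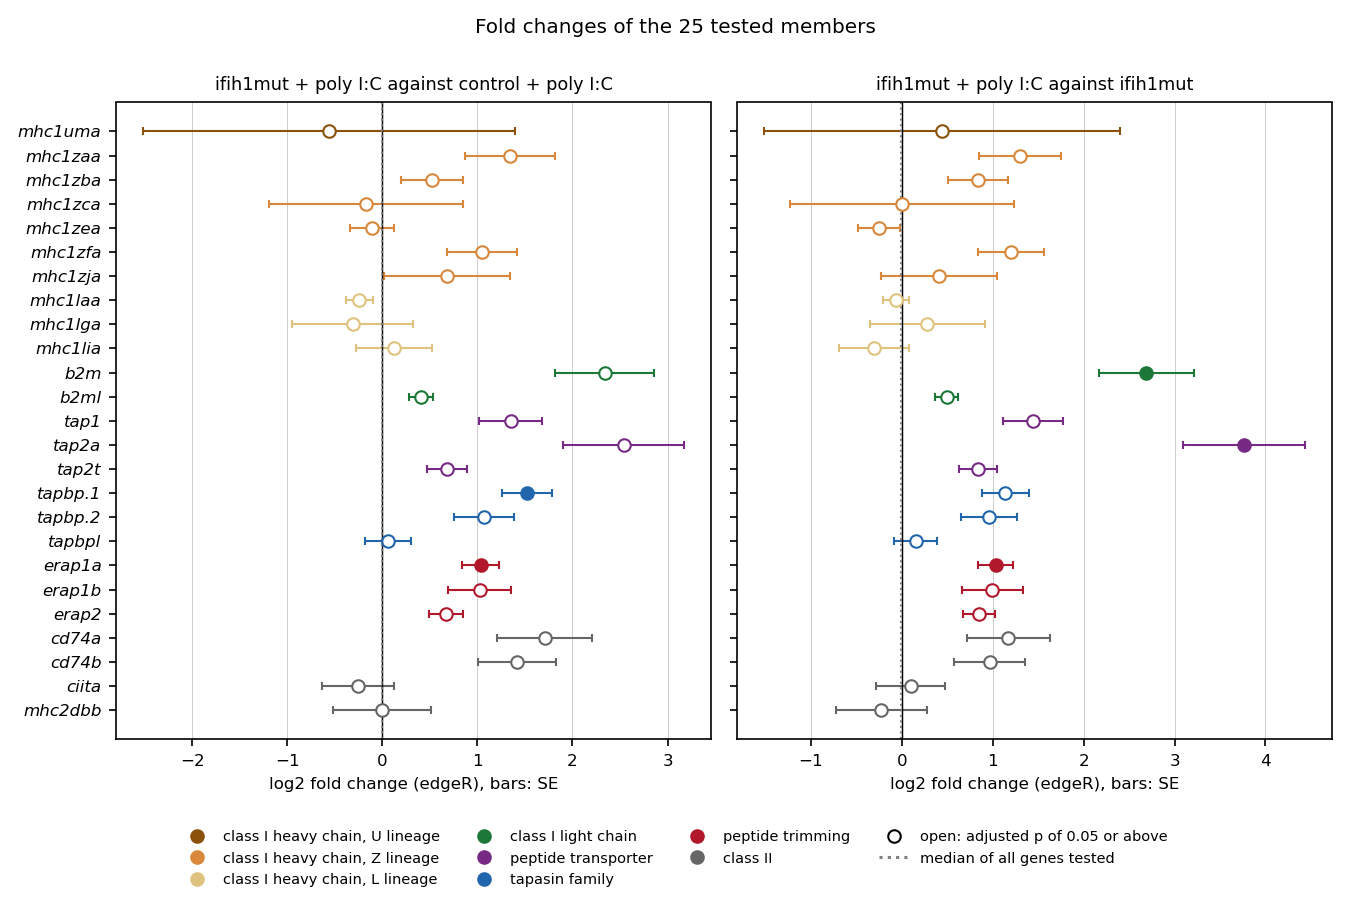
Log2 fold changes of the 25 members tested, with SE as bars, for stimulated ifih1mut against stimulated control pools (left) and against unstimulated ifih1mut pools (right), coloured by role; filled points passed an edgeR adjusted p of 0.05. All 11 class I members other than heavy chains lie to the right of 0 in both panels, while the 10 heavy chains lie on both sides.

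Heavy chains, which carry the peptide groove, had lower medians than the rest of class I; the difference between these groups of genes was not tested. Against stimulated control pools, the median log2 fold change in stimulated ifih1mut pools was 0.0072 over the 10 heavy chains tested and 1.03 over the 11 other class I members, beside -0.0046 over all genes. The lineages differed in value, with a median of 0.60 over the 6 Z heavy chains tested and -0.24 over the 3 of lineage L. Positive values were found for 5 of the 10 heavy chains and 11 of the 11 others, against 48.9% of all genes. Of the others, tapbpl, at 0.06, ranged from -0.07 to 0.23 with single libraries left out. Groups did not overlap for 2 heavy chains and 10 of the others, all higher, against 4.16% of all genes. Here mhc1zaa and tap2a owed this to the filter. Only mhc1uma stands for the classical U lineage. Its SE was 1.96, and its log2 fold change ranged from -7.72 to 7.17 with single libraries left out. Heavy chains mhc1lga, mhc1zca and mhc1zja also had wide errors (SE 0.64, 1.02 and 0.66), so the heavy-chain median says little about classical chains. Against unstimulated ifih1mut pools the medians were 0.35 and 1.00, beside -0.012 over all genes. For the Z and L heavy chains they were 0.62 and -0.06. Values were positive for 6 heavy chains and 11 others, against 46.5% of all genes. Groups did not overlap for 3 heavy chains and 10 others, against 3.55% of all genes, and mhc1zaa and tap2a again owed this to the filter. The medians and the counts of positive values of both comparisons include mhc1zaa and tap2a. No heavy chain passed edgeR's test in either comparison. At an unadjusted p of 0.05 the heavy chains mhc1zaa and mhc1zfa were higher in the first, against 2.48% of all genes. These with mhc1zba were higher in the second, against 2.54% of all genes. The p-values of mhc1zaa are not independent of the filter.

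Within the chromosome 1 cluster, the 3 Z heavy chains behaved differently. The leading one, mhc1zba, was at 109, 74.5 and 73.2 CPM in the stimulated ifih1mut pools, 82.8, 53.6 and 42.3 CPM in the stimulated control pools, 67.8, 38.5 and 37.2 CPM in the unstimulated ifih1mut pools, and 71.5, 35.8 and 45.2 CPM in the unstimulated control pools. Set 1 was the highest in each group, and within each set the stimulated ifih1mut pool was the highest of its 4. Its level was 1.79-fold that of unstimulated ifih1mut pools (log2 fold change 0.84, SE 0.33, edgeR adjusted p = 1.0), and with the library set as a block this passed (adjusted p = 0.00293). Over stimulated control pools the fold was 1.44 (edgeR adjusted p = 1.0, with the block 0.0626).

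In the same cluster, mhc1zea averaged 5.799 ± 1.52 CPM in stimulated ifih1mut pools, 6.25 ± 1.57 CPM in stimulated control pools, 6.91 ± 0.637 CPM in unstimulated ifih1mut pools and 6.26 ± 0.824 CPM in unstimulated control pools (SD, n = 3 each), with overlap throughout. The third gene of the cluster, mhc1zca, lies between mhc1zea and mhc1zba, varied with the library set and is described below. These neighbours are related in sequence, so reads may be split between them.

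The share of mhc1zba in the summed heavy-chain level per kilobase was 59.0% to 81.9% over the 12 libraries. All 11 heavy chains summed to 47.2 ± 8.69 CPM per kb in stimulated ifih1mut pools, 36.5 ± 9.60 in stimulated control pools, 30.9 ± 7.56 in unstimulated ifih1mut pools and 32.5 ± 8.60 in unstimulated control pools (SD, n = 3 each). Without mhc1zba, the other 10 summed to 10.4 ± 1.34, 10.9 ± 0.641, 10.3 ± 0.822 and 10.6 ± 0.954 CPM per kb in the same order of groups, so these means lay closer together than the SD of each group.

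On chromosome 3, mhc1zfa and mhc1zaa had no overlap in the comparisons with stimulated ifih1mut pools. The first averaged 2.60 ± 0.323 CPM in stimulated ifih1mut pools, 1.25 ± 0.420 CPM in stimulated control pools, 1.13 ± 0.0470 CPM in unstimulated ifih1mut pools and 1.09 ± 0.601 CPM in unstimulated control pools (SD, n = 3 each), with a fold of 2.07 over stimulated control pools (log2 fold change 1.05, SE 0.37, edgeR adjusted p = 0.829). Levels of mhc1zaa were 0.490 ± 0.167, 0.191 ± 0.0738, 0.196 ± 0.0579 and 0.110 ± 0.0560 CPM in the same order of groups (SD, n = 3 each), with 128 counts over all libraries. The filter kept mhc1zaa through stimulated ifih1mut pools alone, so its lack of overlap followed from the filter. Pools of mhc1zja, the other gene of the cluster, overlapped in every comparison.

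No L heavy chain was called, and their pools overlapped. The most abundant, mhc1laa, was at 7.73, 6.90 and 9.83 CPM in the stimulated ifih1mut pools, 8.96, 10.4 and 9.55 CPM in the stimulated control pools, 7.82, 8.88 and 8.82 CPM in the unstimulated ifih1mut pools, and 8.86, 8.49 and 10.05 CPM in the unstimulated control pools. Its fold over stimulated control pools was 0.847 (log2 fold change -0.24, SE 0.15, edgeR adjusted p = 1.0), and its pools overlapped in all 4 comparisons of groups. The median log2 fold change of the 3 L heavy chains was -0.24 against stimulated control pools and -0.06 against unstimulated ifih1mut pools.

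The invariant chain genes had higher values in stimulated ifih1mut than in stimulated control pools without passing the test. Of these, cd74a passed the filter on low counts through stimulated ifih1mut pools alone, so its lack of overlap followed from the filter. For cd74a the levels were 0.625, 0.411 and 0.366 CPM in the stimulated ifih1mut pools, 0.124, 0.0900 and 0.211 CPM in the stimulated control pools, 0.230, 0.179 and 0.214 CPM in the unstimulated ifih1mut pools, and 0.229, 0.172 and 0.0630 CPM in the unstimulated control pools. For cd74b they were 0.677, 0.440 and 1.32 CPM in the stimulated ifih1mut pools, 0.340, 0.240 and 0.331 CPM in the stimulated control pools, 0.374, 0.496 and 0.367 CPM in the unstimulated ifih1mut pools, and 0.420, 0.440 and 0.504 CPM in the unstimulated control pools. Stimulated ifih1mut pools were above stimulated control pools without overlap for both, by 3.27-fold for cd74a (log2 fold change 1.71, SE 0.50) and 2.67-fold for cd74b (log2 fold change 1.41, SE 0.41), each at an edgeR adjusted p of 0.447. Against unstimulated ifih1mut pools cd74a did not overlap (log2 fold change 1.17, SE 0.46), but cd74b did (log2 fold change 0.97, SE 0.39), with set 2 at -0.08 on the log2(CPM + 0.5) scale; both had an edgeR adjusted p of 1.0.

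The regulator ciita was at 0.468, 1.38 and 1.13 CPM in the stimulated ifih1mut pools, 0.958, 1.02 and 1.57 CPM in the stimulated control pools, 0.748, 0.867 and 1.15 CPM in the unstimulated ifih1mut pools, and 1.07, 0.841 and 0.914 CPM in the unstimulated control pools, with overlap in every comparison. The 3 mhc2 genes together summed to 0.398 ± 0.167 CPM per kb in stimulated ifih1mut pools, 0.405 ± 0.204 in stimulated control pools, 0.399 ± 0.0353 in unstimulated ifih1mut pools and 0.409 ± 0.143 in unstimulated control pools (SD, n = 3 each). Group means of this sum thus lay closer together than the pools of any group. Over the 4 class II members tested, the median log2 fold change was 0.71 against stimulated control pools and 0.53 against unstimulated ifih1mut pools. Over the 21 class I members it was 0.68 and 0.84. Each class II median rests on the cd74 genes. The filter kept cd74a through stimulated ifih1mut pools alone and removed mhc2b and mhc2dab, so these medians depend on the filter. Among class I members, tap2a and mhc1zaa were kept in the same way as cd74a.

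With 3 pools a group the calls were fragile: 0 members were called in either comparison when the fit held the groups compared alone, or when any 1 library set was left out. These fits called fewer genes of any kind. Against stimulated control pools 69 genes were called on the groups compared alone, and 36, 0 and 52 without set 1, 2 and 3, where the full fit called 159. Against unstimulated ifih1mut pools the numbers were 99 on the groups alone and 89, 49 and 54 without the sets, where the full fit called 183. With single libraries left out, against stimulated control pools, tapbp.1 was no longer called without A72, A74, A78, A79, A80 or A83 (highest edgeR adjusted p 0.157), and erap1a without A72, A74, A77 to A83 (highest 0.215), where A72 to A74 were stimulated ifih1mut pools, A75 to A77 unstimulated ifih1mut, A78 to A80 stimulated control and A81 to A83 unstimulated control. Against unstimulated ifih1mut pools, tap2a was lost without A74, A75, A76, A77 or A80 (highest 0.198), b2m without A72, A74 to A77 or A79 to A82 (highest 0.263) and erap1a without A72, A74, A75, A77 to A80 or A82 (highest 0.186). Their log2 fold changes over these leave-one-out fits were 1.41 to 1.73 for tapbp.1 and 0.85 to 1.19 for erap1a against stimulated control pools, and 2.92 to 4.15 for tap2a, 2.39 to 3.14 for b2m and 0.85 to 1.21 for erap1a against unstimulated ifih1mut pools. Their positive sign was fixed in advance, since the groups compared did not overlap for these genes. For tap2a that lack of overlap followed from the filter.

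Without poly I:C, no member differed between the genotypes past the threshold. Between unstimulated ifih1mut and control pools, edgeR called 0 of the 25 members in either direction (0.00377% of all genes higher, 0.0% lower, also with the library set block). At an unadjusted p of 0.05 it had 0 (0.166% of all genes higher, 0.343% lower). DESeq2 called 0 (0.00379% of all genes higher, 0.00379% lower), and with the block 0 (0.00377% higher, 0.0226% lower). Positive values were found for 11 members (51.1% of all genes). The single gene called higher by edgeR was ifih1 itself (5.99-fold, log2 fold change 2.58, SE 0.24, edgeR adjusted p = 0.00972), a call lost without A76, A81, A82 or A83 (highest adjusted p 0.149). The median log2 fold change of the members was -0.03, and 0 members had unstimulated ifih1mut pools above all unstimulated control pools, against 1.82% of all genes, and 0 below them (1.64%). For b2m the values were 1.67 ± 0.806 CPM in unstimulated ifih1mut pools and 2.86 ± 1.12 CPM in unstimulated control pools (SD, n = 3 each).

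In control larvae no member passed after poly I:C. Between stimulated and unstimulated control pools, edgeR called 0 members (0.0% of all genes in either direction, also with the library set block). DESeq2 called 0 (0.0% in either direction). With the block DESeq2 called 0, against 0.0639% higher and 0.0492% lower of the 20341 genes it gave an adjusted p. Most members got none in that fit, so these could not be called. They were tap2a, tapbp.1, tapbp.2, mhc1lga, mhc1lia, mhc1uma, mhc1zaa, mhc1zca, mhc1zfa and mhc1zja, and every class II member tested (cd74a, cd74b, ciita and mhc2dbb). The 0 of that fit covers only the other members. Positive values were found for 15 members (48.8% of all genes). At an unadjusted p of 0.05 edgeR had 1 member higher (0.721% of all genes) and 0 lower (0.664%), namely tap2a with an unadjusted p of 0.0402 (0.193 ± 0.117 CPM stimulated, 0.0592 ± 0.0194 CPM unstimulated; SD, n = 3 each). Of the members, 1 had all stimulated control pools above all unstimulated control pools, against 2.14% of all genes: erap2, at 4.09 ± 0.199 CPM stimulated and 3.63 ± 0.227 CPM unstimulated (SD, n = 3 each). In the other direction 1 member, cd74b, had all stimulated control pools below all unstimulated control pools, against 2.32% of all genes. Its log2 fold change was -0.57 (SE 0.41, edgeR adjusted p = 1.0), and the stimulated control pools are those its fold of 2.67 above was set against. The median over the members was 0.02 on the log2 scale.

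**Figure D3:**
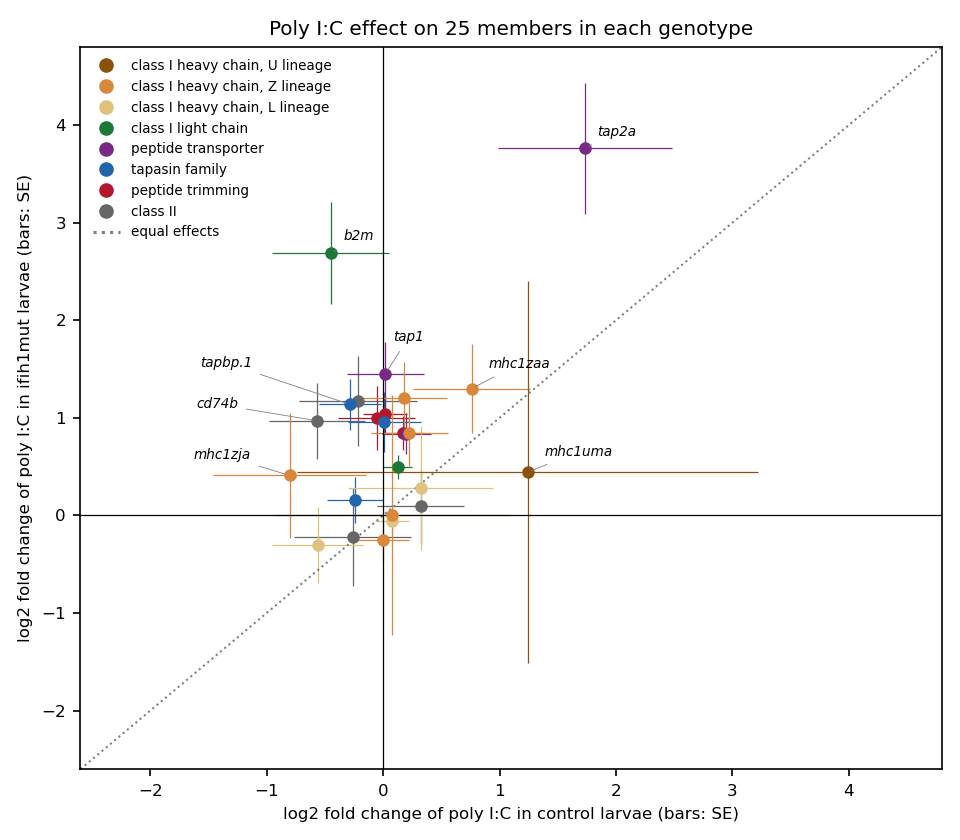
Log2 fold change of poly I:C in ifih1mut larvae (vertical axis) against that in control larvae (horizontal axis) for the 25 members tested, with SE as bars and a dotted line of equal effects. In ifih1mut larvae b2m stands at 2.69 and tap2a at 3.76, and most class I members other than heavy chains lie near 1 vertically and near 0 horizontally.

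Whether poly I:C acted more strongly in ifih1mut than in control larvae was tested directly, since a call in one genotype and none in the other does not show one. By edgeR 0 members were called (0.155% of all genes were larger in ifih1mut larvae, 0.0% smaller; with the library set block also 0, against 0.298% and 0.0%). At an unadjusted p of 0.05, 7 had a larger effect in ifih1mut larvae (1.58% of all genes) and 0 a smaller one (0.46%). DESeq2 called 1 member, b2m, against 0.504% of all genes (0 smaller, 0.0114%), and DESeq2 with the library set block called 3 (b2m, tap1 and mhc1zba), against 0.66% of all genes (0 smaller, 0.0302%). For b2m the effect of poly I:C in ifih1mut larvae exceeded that in control larvae by 3.14 (log2, SE 0.72), with an edgeR adjusted p of 0.287 and a DESeq2 adjusted p of 0.00312. It was positive for 19 of the 25 members, against 48.6% of all genes, with a median of 1.02 over the 11 class I members other than heavy chains, 0.11 over the 10 heavy chains and 0.71 over the 4 class II members. The medians and the count of 19 include tap2a, mhc1zaa and cd74a, which the filter kept through stimulated ifih1mut pools alone.

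Genes that feed the class I line were read beside the members. Of the immunoproteasome and its activator, 10 symbols were listed, 7 matched and 4 could be tested, and psme2, a subunit of the PA28 activator of the proteasome, was called higher in both comparisons. It was at 14.1, 10.3 and 23.4 CPM in the stimulated ifih1mut pools, 4.24, 3.66 and 4.73 CPM in the stimulated control pools, 3.39, 5.66 and 3.41 CPM in the unstimulated ifih1mut pools, and 4.42, 6.75 and 3.40 CPM in the unstimulated control pools. That is a fold of 3.78 over stimulated control pools (log2 fold change 1.92, SE 0.34, edgeR adjusted p = 0.0299) and 3.82 over unstimulated ifih1mut pools (log2 fold change 1.93, SE 0.34, edgeR adjusted p = 0.0255). The other 3 tested, psmb9a, psmb10 and psmb13a, all had positive log2 fold changes. With the library set block, psmb13a passed against stimulated control pools (edgeR adjusted p = 0.0241), on counts it may share with tap2a. Like tap2a, it passed the filter through stimulated ifih1mut pools alone.

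The general machinery around the line had no called member. Of the 3 constitutive catalytic proteasome subunits (psmb5, psmb6 and psmb7), 0 were called, with medians of 0.09 against stimulated control pools and -0.06 against unstimulated ifih1mut pools. Of 7 folding factors of the endoplasmic reticulum, including calnexin and calreticulin genes that help heavy chains fold, 0 were called and the medians were -0.06 and -0.03. Of 15 entries for regulators of MHC transcription, 0 were called, with medians of 0.12 and 0.09. One of them, nlrc5, whose mammalian counterpart drives class I transcription, averaged 0.867 ± 0.689 CPM in stimulated ifih1mut pools and 0.303 ± 0.0481 CPM in stimulated control pools (SD, n = 3 each), and another, rfx5, averaged 18.2 and 20.0 CPM in the same groups. Of 9 class II processing genes (cathepsins, lgmn and others), 0 were called; with the library set block 1 passed against stimulated control pools, ctss2.2 (2.28-fold, edgeR adjusted p = 0.0477), a cathepsin S gene.

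For scale, 10 of 10 listed interferon-stimulated genes were called higher in stimulated ifih1mut pools in each comparison, with medians of 6.38 and 7.25 on the log2 scale. The lowest adjusted p-values against stimulated control pools were those of dhx58 (80.2-fold), mxa (86.4-fold), isg15 (71.7-fold) and mxb (109.9-fold), at edgeR adjusted p of 0.000977, 0.00101, 0.00120 and 0.00141. The member with the highest fold there in the full fit was tap2a (log2 fold change 2.54). Its log2 fold change was 1.70 without A74, below the lowest such value of b2m, 2.05, and it ranged from 1.70 to 2.92 over the 12 leave-one-out fits. Lists of this kind had been chosen with results on these libraries known, so their direction is not independent evidence.

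Macrophage markers had their highest sums in the pools where the members were high, but most of that difference came from 1 marker, mpeg1.2. The 8 macrophage markers summed to 79.6 to 141 CPM in the stimulated ifih1mut pools, 43.1 to 63.9 CPM in the stimulated control pools, 42.4 to 62.8 CPM in the unstimulated ifih1mut pools and 44.5 to 59.2 CPM in the unstimulated control pools. By edgeR 0 of the 8 were called in either comparison. Levels of mpeg1.2, a perforin-like gene of macrophages, were 50.6 ± 30.6 CPM in stimulated ifih1mut pools and 12.9 ± 3.89 CPM in stimulated control pools (SD, n = 3 each; edgeR adjusted p = 0.102); with the library set block it passed in both comparisons, and marco, a scavenger receptor gene, passed against unstimulated ifih1mut pools. Over the 8 markers the log2 fold change was positive for 6 against stimulated control pools (median 0.41) and for 8 against unstimulated ifih1mut pools (median 0.52). The folds over stimulated control pools ranged from 3.93 for mpeg1.2 and 2.24 for marco to 0.964 for csf1rb, with 1.08 for csf1ra, the receptor gene of a macrophage growth factor.

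Of the other leukocyte lists none had a called member. The 4 neutrophil markers summed to 69.5 to 126 CPM in the stimulated ifih1mut pools and 54.5 to 99.1 CPM in the stimulated control pools. The 4 markers of all leukocytes summed to 26.9 to 33.5 CPM and 20.9 to 31.1 CPM in the same groups. Of 5 T and NK cell markers tested 0 passed, and of 2 B cell markers tested 0 passed. None of the matched markers in these lists was at 0 in every library. Whether the number of these cells has a part in the levels of the members was not tested, and in RNA of whole larvae more cells of a type and more RNA per cell cannot be told apart.

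**Figure D4:**
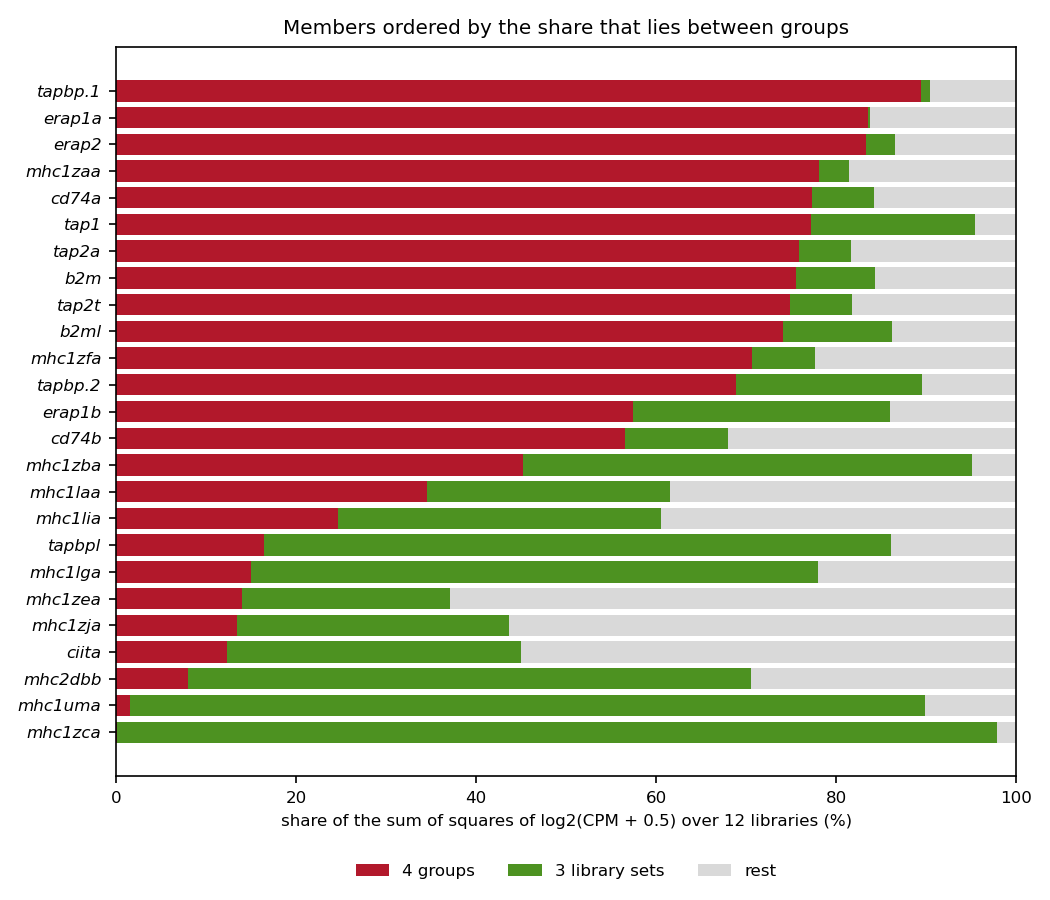
Share of the sum of squares of log2(CPM + 0.5) over 12 libraries that lies between the 4 groups, between the 3 library sets, and in the rest, for the 25 members tested. For tapbp.1 89.4% lies between groups, and for mhc1zca 97.8% lies between sets.

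Library sets mattered more than groups for some members and hardly at all for others. The share of the sum of squares of log2(CPM + 0.5) between groups exceeded that between sets for 15 of 25 members, against 31.8% of all genes. By role it did so for 10 of the 11 class I members other than heavy chains, 3 of the 10 heavy chains and 2 of the 4 class II members. These counts include tap2a, mhc1zaa and cd74a, which the filter kept through stimulated ifih1mut pools alone. Their shares between groups are therefore not independent of the filter. At one end stood tapbp.1, with 89.4% between groups and 1.0% between sets, then erap1a with 83.5% and 0.3%. At the other stood mhc1zca, with 0.1% between groups and 97.8% between sets, and mhc1uma, with 1.5% and 88.4%.

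Heavy chain mhc1zca ranged over 3.04 to 3.74 CPM in set 1, 0.593 to 0.910 CPM in set 2 and 0.423 to 0.602 CPM in set 3. Every group therefore held one high pool and a pair of low ones. The U lineage gene mhc1uma was at 0, 1.12 and 0 CPM in the stimulated ifih1mut pools, 0, 1.62 and 0 CPM in the stimulated control pools, 0, 0.592 and 0.168 CPM in the unstimulated ifih1mut pools, and 0, 0.631 and 0.0630 CPM in the unstimulated control pools. All 4 libraries of set 1 thus held 0 counts, where 3 counts, the limit that a count of 0 allows, correspond to 0.0287 to 0.0927 CPM. The adjoining entry FO904903.1, described in the tables as another U lineage chain, followed the same pattern, with 0 counts in set 1 and 36 to 46 counts in each library of set 2, and the reads of such close relatives may be shared.

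Counted over genes, set 1 lay above the other sets without overlap for 2 members, mhc1zca and tapbpl, against 5.96% of all genes. Set 2 did so for 2 members, mhc1lga and mhc1uma, against 2.29% of all genes. Set 1 lay below for 0 of the members tested (4.72% of all genes), and set 2 for 0 (2.38%). Set 3 lay above for 0 (3.5%) and below for 0 (2.74%). From counts this small nothing is read about the members as a whole. For tapbpl the ranges were 22.7 to 28.9 CPM in set 1, 14.7 to 21.9 CPM in set 2 and 15.1 to 17.4 CPM in set 3. For mhc1lga they were 0.528 to 0.669 CPM in set 2, 0.230 to 0.433 CPM in set 1 and 0.122 to 0.482 CPM in set 3. The class II member mhc2dab, which the filter removed, had its set 1 below the other sets. It ranged over 0 to 0.0520 CPM in set 1, 0.179 to 0.323 CPM in set 2 and 0.0764 to 0.331 CPM in set 3. In these genes the groups overlapped, and each set held 1 library of every group, so the sets do not coincide with the comparisons above.

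**Figure D5:**
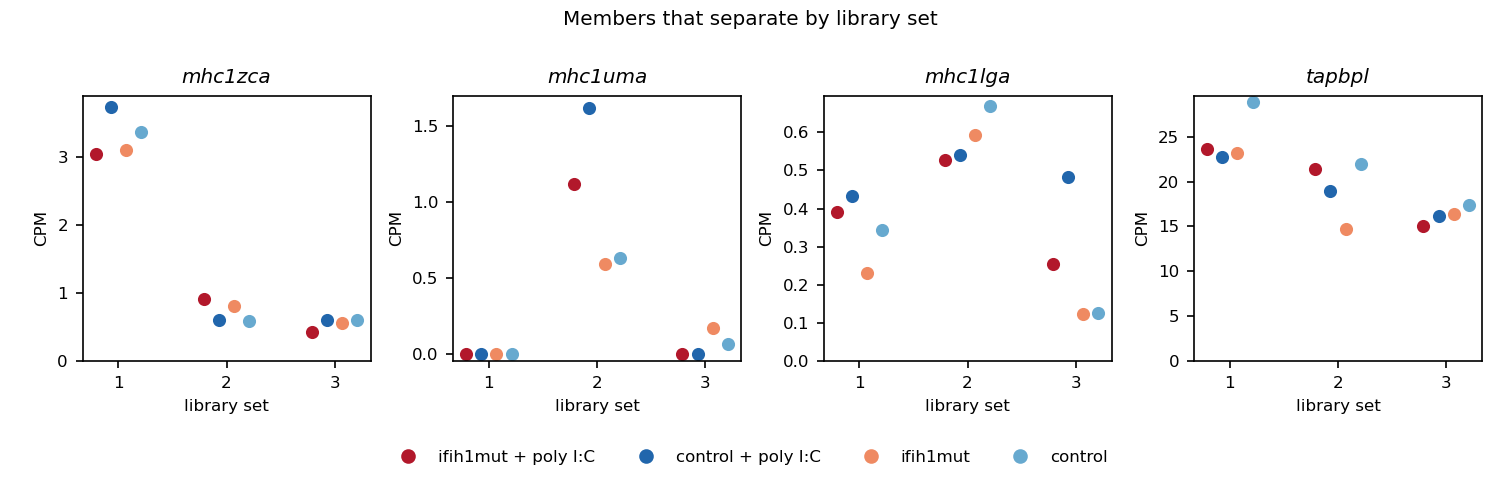
CPM of the 4 tested members whose libraries of one set lie above those of the other sets, by library set, with 1 point per group in each set. In mhc1uma the 4 libraries of set 1 are at 0, and in mhc1zca they are at 3.04 CPM or above.

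Across the 12 libraries, the genes outside the members most like b2m in log2(CPM + 0.5) were BX927298.1 (Pearson r = 0.966), caspbl (0.945), CABZ01074397.1 (0.941) si:ch211-15j1.4 (0.933) and an unnamed entry (0.942). Among the members the closest was tap1 (0.918), then b2ml (0.877) and erap1a (0.854), and the least alike were ciita (-0.326) and mhc1laa (-0.324). These values describe 12 libraries whose 4 groups and 3 sets they share, and no test was made.

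In the authors' deposited table of stimulated ifih1mut against stimulated control pools, 261 of 31293 genes had an adjusted p under 0.05, and 3 of them were members: b2m (log2 fold change 2.34, adjusted p = 8.03e-05), erap1a (1.03, adjusted p = 0.000483) and tapbp.1 (1.52, adjusted p = 0.00601). In the authors' deposited table of unstimulated ifih1mut against control pools, 5 of 31893 genes passed that threshold, and in the authors' deposited table of stimulated against unstimulated control pools 7 of 31617 did; 0 of them were members, and nothing is read from so small a share.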

How the data were processed

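Each library came from total RNA of 25 pooled larvae, isolated with TRIzol followed by a kit, per the labels' protocols. Gene counts per library were deposited by the authors in 3 tables, which also hold the authors' own log2 fold changes and p-values for 3 comparisons; aligner, counting program, test and build are not given in the labels or tables. The tables were joined by gene ID: 187002 counts listed more than once showed 0 differences, and 6372 missing counts in 1484 genes were set to 0. A further 36 per-library columns were not used. Columns were matched to groups by their names.

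Genes were filtered (filterByExpr, minimum count 10, total 15) and fitted in edgeR 4.0.16 (R 4.3.3, limma 3.58.1) with TMM and the quasi-likelihood test over all 12 libraries and 4 groups, without a block, with 8 residual degrees of freedom. P-values were Benjamini-Hochberg adjusted over 26508 genes, with a threshold of 0.05. SE is the log2 fold change divided by the square root of its F. Alternatives were DESeq2 1.42.0, other scalings and filters, a library set block, and left-out libraries or sets. Scripts were tested on simulated data. Values in every library are given for b2m, tap2a, tapbp.1, erap1a, members called by edgeR with or without the block, ciita, the cd74 genes, and the most abundant chain per length of each lineage; other members by mean, range or count. Of each list up to 4 called genes are named; list genes named without a call (mpeg1.2, marco, ctss2.2, nlrc5, rfx5, irf1b, csf1ra, csf1rb) were chosen after their values were seen. In addition 11 lists of 90 symbols, 78 of them matched, were described. Limits from 3 counts cover counting error only. The members, lists and library sets were chosen with earlier results of these data known. No sequences are printed, since a genome of the tables' build was not used here.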

Additional observations from a re-analysis of the deposited data

How the results depend on the processing

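The count of members called depended on how the spread was estimated. Against stimulated control pools it was 2 (of 159 genes called), 4 with the library set as a block (234 genes), 4 with DESeq2 (272), 8 with DESeq2 and the block (378) and 0 when fitted on the groups compared alone (69). Leaving out library set 1, 2 or 3 gave 0, 0 and 0 (36, 0 and 52 genes), and leaving out each library gave 0 to 3. Against unstimulated ifih1mut pools it was 3 (183 genes), 7 with the block (277), 8 with DESeq2 (307), 11 with DESeq2 and the block (450) and 0 on the groups compared alone (99). The counts of 3, 7, 8 and 11 include tap2a, which the filter kept through stimulated ifih1mut pools alone. Leaving out set 1, 2 or 3 gave 0, 0 and 0 (89, 49 and 54 genes), and leaving out each library gave 0 to 3. For the difference between the genotypes' effects it was 0 (41 genes), 1 with DESeq2 (136) and 3 with DESeq2 and the block (183), and 0 to 0 without each library. These smaller fits hold fewer samples; the cause of the other changes was not tested. For 15 members, ifih1 and psme2, fold changes were followed under the alternatives. Of these values, 986 kept direction and side of the threshold, 33 came to pass, 81 no longer passed and 0 reversed. That 0 covers only these genes, and other members did change sign. Each of the 15 members had no overlap of groups in at least 1 of the comparisons with stimulated ifih1mut pools. Such a lack of overlap leaves little room for a sign to reverse, and for tap2a, mhc1zaa and cd74a it followed from the filter. Among members outside those 15, leaving out single libraries changed the sign of 8 members against stimulated control pools and 7 against unstimulated ifih1mut pools. One was mhc1zja (-0.49 to 1.08 against stimulated control pools). No paired analysis was possible because the count columns carry no replicate number of the sample titles. The library set block does not replace it: the sets were recognised from these same libraries, so calls made with the block are not independent of them.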
